A study of Homo sapiens with 3 samples.

Results

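Transcripts of 10 transcription factors that set cell identity in the breast were measured in MDA-MB-231 cells, an established line from a human breast tumour of the triple-negative class, which lacks both hormone receptors and amplified ERBB2. The members were GATA3, FOXA1, ELF3, ELF5, SPDEF, TFAP2A, TFAP2C, SOX9, SOX10 and EHF, a named list of luminal and basal lineage regulators, and they are 10 of 22825 genes in the deposited count tables. Each gene's count was that of its transcript record with the largest total, and each of the 10 counted records had a single copy. The cells, which carry the p53 change R280K per the labels, were grown with 10% FCS and received a control siRNA at 50 nM in 2 transfections 24 h apart, with harvest 48 h after the second. RNA sequencing of 3 biological replicates of this 1 group (n = 3) was available, all from 1 cell line, so no treatment effect could be tested. The other siRNA arm of the study was not analysed here.

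Mammary epithelium has an inner luminal layer, which responds to hormones or makes milk, and an outer basal layer of contractile cells. GATA3 and the pioneer factor FOXA1 open chromatin for the oestrogen receptor and maintain the hormone-sensing luminal state, while ELF5 drives the milk-producing alveolar state. ELF3, EHF and ELF5 form the epithelium-specific branch of the ETS family, and SPDEF is an ETS factor of luminal and secretory cells. The AP-2 factors TFAP2A and TFAP2C act in luminal and ectodermal gene control. SOX9 marks luminal progenitor cells and directs cartilage formation, and SOX10 marks mammary stem-like cells and the neural crest.

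Start-site sequence was matched for 7 of the 10 members in the RefSeq promoter table (build GRCh38.p14), and for SOX9, SOX10 and TFAP2C no sequence was used. The 250 bases before the start are shown 5′ to 3′ for 5 members, because they cover both the highest and the lowest levels measured and both CpG-poor and CpG-rich starts. CpG dinucleotides are in capitals. EHF and ELF5 are adjacent coding genes.
EHF: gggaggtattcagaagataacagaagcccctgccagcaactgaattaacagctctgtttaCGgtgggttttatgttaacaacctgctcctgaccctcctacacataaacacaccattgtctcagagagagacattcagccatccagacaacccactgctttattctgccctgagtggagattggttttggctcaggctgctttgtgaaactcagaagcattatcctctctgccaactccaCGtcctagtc
ELF5: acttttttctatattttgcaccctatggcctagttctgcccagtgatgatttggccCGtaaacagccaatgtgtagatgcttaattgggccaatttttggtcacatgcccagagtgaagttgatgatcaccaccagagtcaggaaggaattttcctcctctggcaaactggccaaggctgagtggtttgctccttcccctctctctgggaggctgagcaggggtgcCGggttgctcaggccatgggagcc
SPDEF: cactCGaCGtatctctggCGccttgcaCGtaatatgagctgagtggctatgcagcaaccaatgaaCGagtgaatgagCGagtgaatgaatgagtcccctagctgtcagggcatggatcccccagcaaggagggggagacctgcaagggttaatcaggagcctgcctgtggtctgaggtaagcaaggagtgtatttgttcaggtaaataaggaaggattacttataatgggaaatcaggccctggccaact
FOXA1: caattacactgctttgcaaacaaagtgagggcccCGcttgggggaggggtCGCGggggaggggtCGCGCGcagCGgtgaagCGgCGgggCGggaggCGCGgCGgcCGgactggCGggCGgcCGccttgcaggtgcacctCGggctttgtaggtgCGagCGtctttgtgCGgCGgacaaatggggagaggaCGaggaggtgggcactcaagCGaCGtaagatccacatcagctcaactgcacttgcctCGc
GATA3: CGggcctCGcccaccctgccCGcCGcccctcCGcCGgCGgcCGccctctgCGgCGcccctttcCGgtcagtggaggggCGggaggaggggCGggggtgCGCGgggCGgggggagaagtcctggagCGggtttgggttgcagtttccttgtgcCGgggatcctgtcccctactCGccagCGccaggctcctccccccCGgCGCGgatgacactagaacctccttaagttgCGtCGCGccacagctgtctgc
The EHF stretch is chr11:34632316-34632565, plus strand, and that of ELF5 is chr11:34511725-34511974, minus strand. SPDEF is shown from chr6:34556330-34556579, minus strand, FOXA1 from chr14:37595250-37595499, minus strand, and GATA3 from chr10:8054438-8054687, plus strand. Where a gene had several listed starts, the one nearest to the start of the counted record was taken, from 2 starts for EHF and 6 for GATA3. The single start listed for ELF5 lay 2081 bases from that of the counted record.

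Over windows of 300 bases, which add the first 50 bases of the transcript, the promoters of the 4 ETS members held few CpGs, with 3 in EHF, 8 in SPDEF, 7 in ELF3 and 2 in ELF5. The other listed EHF start held 8, and the 6 GATA3 starts held 5 to 36. GATA3 with 29, TFAP2A with 18 and FOXA1 with 34 CpGs lay above the median of 14 over 35116 promoters. Of the CpG-poor group, EHF, SPDEF and ELF3 lay between 14.5 and 97.0 TPM. ELF5 had no counts, and its listed start lay 2081 bases from that of the counted record. The 3 genes above the median lay between 0.795 and 4.14 TPM. A relation of CpG content to level was not tested. Matches to binding motifs of the members' own families were sparse on either strand, and none overlapped a match to another motif searched. The forkhead motif TGTTTAC was found once each in EHF and ELF5 (3.42% of all promoters hold it), and the GATA motif AGATAA once in EHF (10.3%). The SOX motif ACAAAG occurred 3 times in FOXA1 and once in EHF (16.1%). GATA3 held 1 match each to the ETS motif CCGGAA (17.2%) and the AP-2 motif GCCNNNGGC (23.2%). SPDEF, ELF3 and TFAP2A held none of the 5.

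Gene counts summed to between 54517311 and 84888346 per library. Levels of a gene between libraries are in CPM (counts over the TMM-scaled library size), and levels of different genes in TPM (counts per base of transcript, scaled to the same sum in each library), as mean ± SD (n = 3). More genes held exactly 2 counts than 1 in each library (580 to 712 against 379 to 485), as would arise if each mate of a pair were counted, so 1 pair was taken as 2 counts. A count of 0 allows a level of 0.0878 CPM in replicate 1, 0.0708 in replicate 2 and 0.109 in replicate 3, which is that of 3 pairs (6 counts) and covers counting error only. As for the label of the line, VIM, a mesenchymal filament gene, stood at 4705 ± 166 TPM, CDH1, the E-cadherin gene, at 0.625 ± 0.237 TPM, and the receptor genes ESR1 and PGR had 1 to 3 and 19 to 30 counts per library. CD44, an adhesion receptor gene, was at 174.5 ± 3.50 TPM. Chosen after their values were seen, ERBB2 was at 29.8 ± 1.72, the epithelial gene EPCAM at 18.2 ± 1.27 and CD24 at 13.2 ± 0.524 TPM. These 3 reached 1 CPM in every library, and CDH1 did not. Few markers of non-epithelial cells were detected, with 1 of 5 leukocyte, 1 of 6 fibroblast and 2 of 5 endothelial markers at 1 CPM or more in every library. Over all genes the share was 55.6%. The markers that passed were CD14, COL1A1, KDR and PECAM1, and ITGAM and DCN had no counts. The summed level of each list ran over the libraries from 2.47 to 3.52 CPM for leukocyte, 17.4 to 21.0 CPM for fibroblast and 5.94 to 6.61 CPM for endothelial markers, nearly all of the fibroblast sum being COL1A1. These sums are not per length, because the length matched to COL1A1 was 614 bases where its longest transcript has 6727. In bulk RNA, fewer cells of a type and less RNA per cell cannot be told apart.

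Of the 10 members, 7 reached 1 CPM in every library, against 55.6% of all genes and 67.7% of genes with a count. EHF, SOX9 and SPDEF were abundant, ELF3 and TFAP2C moderate, GATA3 and TFAP2A low, FOXA1 just under the minimum, and SOX10 and ELF5 near or at 0. Among detected genes, whose median was 23.2 TPM, EHF lay at percentile 84.4, SOX9 at 81.8 and SPDEF at 72.8, above the median. ELF3 was at percentile 37.1, TFAP2C at 28.5, GATA3 at 13.9 and TFAP2A at 11.6, all below it.

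**Figure D1:**
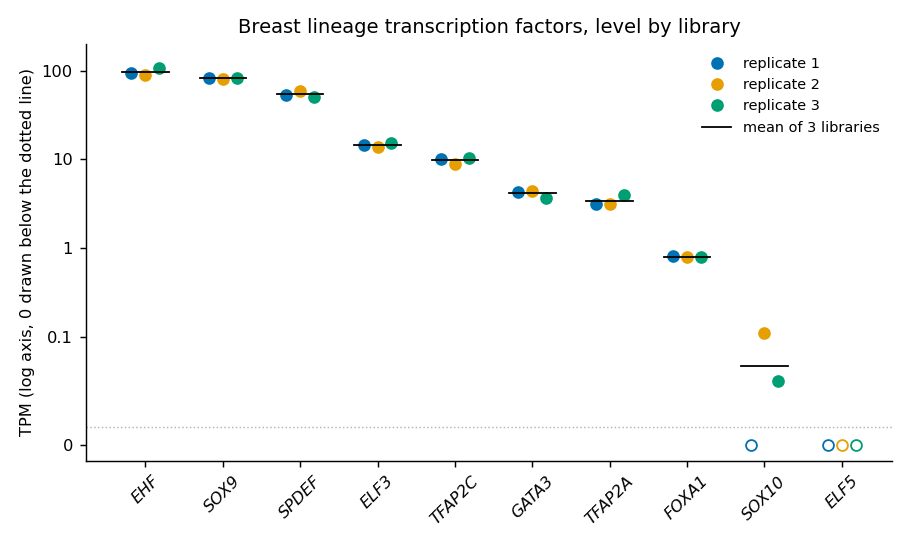
Level of each member in TPM (log axis) in the 3 libraries, with open circles for 0 counts and bars for the mean of the libraries. Levels fall from EHF at 97.0 TPM to FOXA1 at 0.795 TPM, and ELF5 has no counts in any library.

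**Figure D2:**
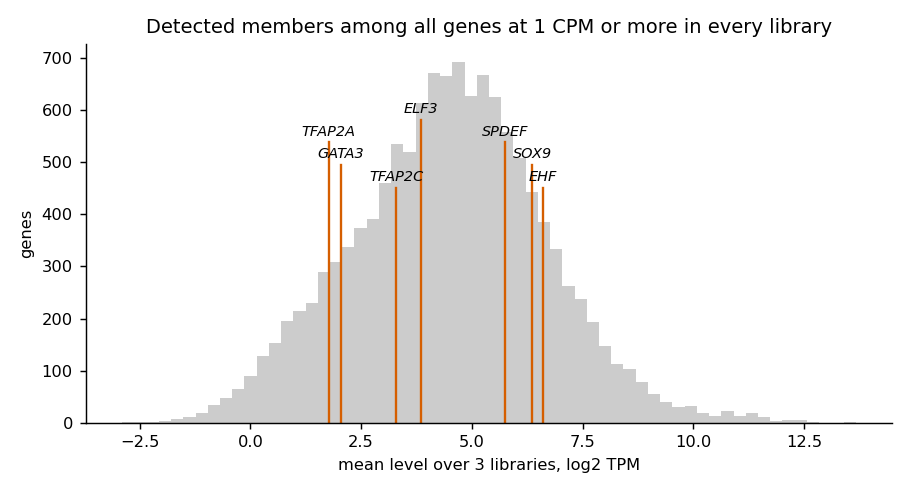
Mean level (log2 TPM) of all genes at 1 CPM or more in every library, as a histogram of gene numbers, with the 7 members that reached this minimum as lines. EHF, SOX9 and SPDEF lie to the right of the peak, TFAP2A and GATA3 in the left flank.

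The hormone-sensing regulators were weakly transcribed. GATA3 (Entrez gene 2625) had 373, 480 and 253 counts, or 4.30, 4.43 and 3.69 TPM, in replicates 1, 2 and 3. Replicate 3 was the lowest, and the mean was 4.14 ± 0.394 TPM. FOXA1 (3169) had 64, 78 and 50 counts, or 0.805, 0.785 and 0.796 TPM, with a mean of 0.795 ± 0.01003. In CPM FOXA1 stood at 0.936, 0.920 and 0.911, with exact 95% Poisson intervals on read pairs of 0.641 to 1.32, 0.655 to 1.26 and 0.590 to 1.35. Each interval includes the minimum of 1 CPM, so counting does not separate FOXA1 from a gene at that level. GATA3 exceeded FOXA1 5.21 ± 0.515-fold per library, in 3 of 3 libraries. The coefficient of variation of FOXA1 in CPM was 1.39%, where counting of pairs alone gives 18.0%. The SD of its level therefore understates the uncertainty.

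Neither gene was the leading member of its family. Of the 6 GATA genes, GATA6, which acts in endoderm and heart, was the highest at 22.2 ± 1.39 TPM, followed by GATA2, a blood and progenitor factor, at 7.55 ± 0.504 TPM. GATA3 supplied 12.2 ± 0.862% of the summed GATA level and GATA6 65.5 ± 2.07%. GATA1, GATA4 and GATA5 had no counts. Among the 3 FOXA genes, FOXA2, an endodermal relative of FOXA1, stood at 51.8 ± 2.54 TPM and supplied 96.0 ± 0.25% of the summed level. FOXA3 was at 1.36 ± 0.239 TPM, and FOXA1 supplied 1.48 ± 0.0860%. The ranges of FOXA1 and FOXA2 over the libraries were far apart. GATA3-AS1, a noncoding gene beside GATA3, had 13, 14 and 0 counts, and no exon of another annotated gene overlapped that of GATA3 or FOXA1.

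Of 18 genes of the luminal hormone programme, 13 (72.2%) reached 1 CPM in every library, with a median of 24.6 TPM. The share was 55.6% over all genes and 67.7% over genes with a count. Highest were KRT8 and KRT19, keratins of simple epithelia, at 771 ± 41.8 and 681 ± 52.97 TPM, and AGR3, a secretory protein gene, had no counts. ESR1 stood at 0.0124 ± 0.00491 and PGR at 0.0620 ± 0.00154 TPM. Chosen after their values were seen, MLPH, a vesicle transport gene, was at 109 ± 3.63, XBP1, a secretory cell regulator, at 93.2 ± 4.82, AGR2 at 91.1 ± 0.964 and the oestrogen-responsive TFF1 at 27.4 ± 4.35 TPM.

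The ETS members spanned the whole range. EHF (26298) had 8317, 9690 and 7434 counts, or 95.1, 88.6 and 107 TPM, highest in replicate 3 and lowest in replicate 2. Its mean of 97.0 ± 9.59 TPM was the highest of the 10 members and of the 22 ETS genes listed. That value used the longest of its records' transcripts, 3150 bases, and with the 1481 bases of the counted record's own transcript it was 195 ± 19.2 TPM. SPDEF (25803) had 2764, 3889 and 2098 counts, or 52.5, 59.1 and 50.4 TPM, with a mean of 54.0 ± 4.54. Here replicate 2 was the highest and replicate 3 the lowest, the reverse of EHF. ELF3 (1999) had 1269, 1521 and 1062 counts, or 14.4, 13.8 and 15.2 TPM, and a mean of 14.5 ± 0.720. A noncoding gene annotated on the same strand, AL691482.3, shared 14.1% of the exonic bases of ELF3, and its reads cannot be told apart there. The ranges of the 3 genes did not overlap, and SPDEF exceeded ELF3 3.75 ± 0.495-fold per library.

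ELF5 (2001) had no counts in any of its 4 records, which allows up to 0.0882, 0.0705 and 0.112 TPM in replicates 1, 2 and 3. The coding genes around it were transcribed. In their order along the chromosome, the ubiquitin ligase adaptor gene ABTB2 stood at 15.9 ± 0.855 TPM, the catalase gene CAT at 92.6 ± 1.72, ELF5 at 0, EHF at 97.0 ± 9.59, the methionine salvage gene APIP at 80.0 ± 5.93 and the pyruvate dehydrogenase gene PDHX at 48.3 ± 2.42 TPM. ELF5 was thus the single gene of these 6 without counts. These neighbours were chosen after the levels of EHF and ELF5 were seen. Of 10 genes of the alveolar programme that ELF5 governs, 3 reached 1 CPM in every library, against 55.6% of all genes. STAT5B and STAT5A, which carry the prolactin signal, stood at 24.7 ± 0.80 and 10.3 ± 0.154 TPM, and ALDH1A3, a retinal dehydrogenase of luminal progenitors, at 4.49 ± 0.185 TPM. The milk protein genes CSN1S1, CSN2, CSN3 and LALBA had no counts, and the prolactin receptor gene PRLR was at 0.105 ± 0.0330 TPM.

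Of the 22 ETS genes listed, a chosen part of the family, 17 reached 1 CPM in every library, against 55.6% of all genes. The median was 25.8 TPM over all 22. After EHF came ETV4 at 82.4 ± 6.06, ETS1 at 79.2 ± 3.28, ETV1 at 72.2 ± 5.01 and ETV5 at 63.4 ± 1.17 TPM, none of which is restricted to epithelium, and SPDEF was 6th. ELF3 was 16th, with ELF2 just above it at 14.7 ± 0.477 and ETS2 just below at 14.0 ± 0.604 TPM, and these 3 overlapped over the libraries. The others that passed, from ELK3 at 50.9 ± 2.11 to GABPA at 18.2 ± 1.24 TPM, were ERF, ELK1, ETV6, ELF1, ELF4 and ELK4. EHF supplied 13.0 ± 1.05% of the summed level of the 22 listed genes, SPDEF 7.27 ± 0.739% and ELF3 1.94 ± 0.0619%. FLI1 and SPIB, which act in blood cells, were at 0.104 ± 0.0462 and 0.0426 ± 0.0285 TPM, and ERG and SPI1 had no counts.

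**Figure D3:**
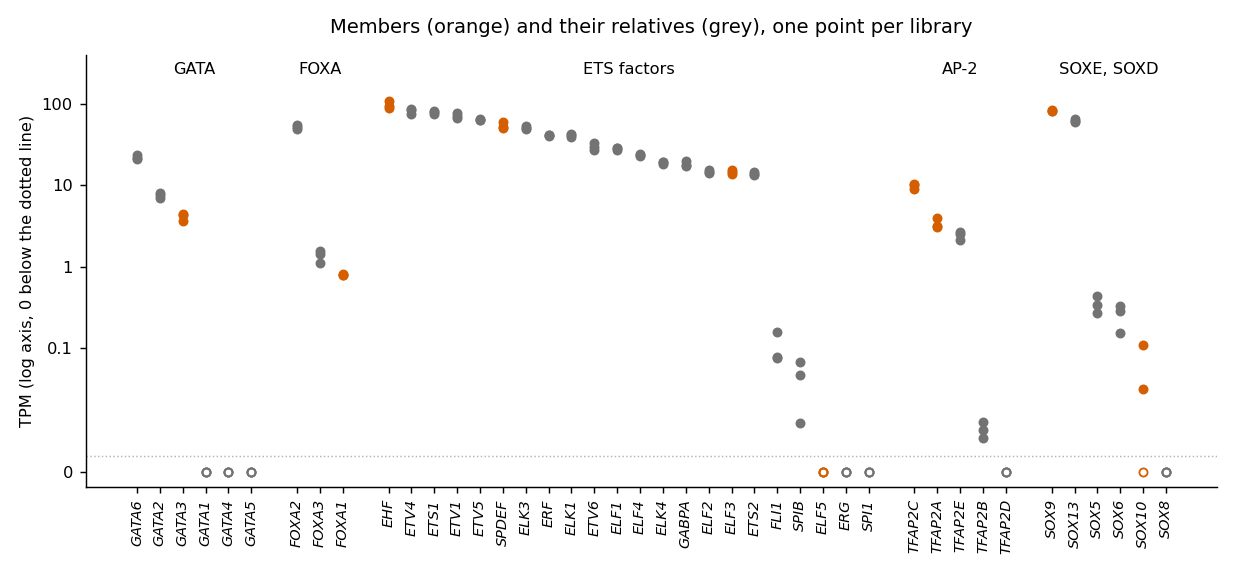
TPM (log axis) of members (orange) and relatives (grey) in 5 families, 1 point per library, with open circles for 0 counts. FOXA2 and GATA6 lie above FOXA1 and GATA3, whereas EHF, TFAP2C and SOX9 are the highest genes shown in their groups.

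Records of one gene differed little in count, so that they could not be told apart as separate transcripts. The 3 EHF records held 97.2% or more of the largest in each library, and the lower SPDEF record held 92.9% to 93.5% of the larger, 150 to 277 counts fewer. Both ELF3 records differed by at most 1 count and both GATA3 records by at most 2. The exception was TFAP2A, whose records differ in their first exons. The highest record, used as the gene count, had 330, 417 and 336 counts in replicates 1, 2 and 3, the next 288, 363 and 305, and the lowest 264, 346 and 287. The lowest therefore held 80.0% to 85.4% of the highest.

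Of the AP-2 factors, TFAP2C (7022) had 804, 890 and 660 counts, or 10.1, 8.94 and 10.5 TPM, with a mean of 9.84 ± 0.802. TFAP2A (7020) was at 3.10, 3.14 and 3.996 TPM, highest in replicate 3, with a mean of 3.41 ± 0.506. TFAP2C exceeded TFAP2A 2.91 ± 0.319-fold per library and supplied 62.6 ± 1.24% of the summed AP-2 level. TFAP2E, a less studied relative, stood at 2.46 ± 0.286 TPM. TFAP2B, which acts in kidney and neural crest, had 1 or 2 counts per library, and TFAP2D had none. An annotated antisense gene, TFAP2A-AS2, shared 7.42% of the exonic bases of TFAP2A, and since the strand setting of the counting is not stated, its reads cannot be told apart from those of TFAP2A there. TFAP2A-AS1, another antisense gene, was at 2.35 ± 0.601 TPM.

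SOX9 (6662) had the lowest coefficient of variation in CPM of the 8 members tested. It had 9001, 11130 and 7224 counts, or 82.3, 81.5 and 83.6 TPM, with a mean of 82.5 ± 1.07. In CPM it stood at 131.7, 131.3 and 131.6, a coefficient of variation of 0.147%, where counting of pairs alone gives 1.504%. SOX10 (6663) had 0, 11 and 2 counts, that is 0, 0.110 and 0.0316 TPM. The 11 counts of replicate 2 correspond to an exact 95% interval of 0.0450 to 0.292 CPM, and replicates 1 and 3 were under the limit that 3 pairs set. With all genes with a count tested, the adjusted p of the SOX10 difference between libraries was 0.113 (edgeR deviance, Benjamini-Hochberg). SOX10 shared 11 exonic bases with POLR2F, an RNA polymerase subunit gene on the other strand at 30.2 ± 1.005 TPM.

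SOX8, the third gene of the SOXE group, had no counts. Of the SOXD genes, SOX13 was at 62.2 ± 1.99 TPM. SOX5 and SOX6, whose products act with SOX9 in cartilage, were only at 0.348 ± 0.0865 and 0.255 ± 0.0913 TPM. Of 8 cartilage targets of SOX9, 1 reached 1 CPM in every library, against 55.6% of all genes. It was the collagen gene COL11A1 at 0.753 ± 0.0697 TPM. CHADL, of the same list, was at 0.953 ± 0.0493 TPM, and COL2A1, the main cartilage collagen gene, had no counts. Of 12 neural crest, melanocyte and glial genes linked to SOX10, 4 reached that level. They were MITF, the melanocyte regulator, at 17.2 ± 1.01 TPM, the endothelin receptor gene EDNRB at 7.33 ± 0.358, ERBB3 at 3.65 ± 0.295 and PMEL at 1.78 ± 0.420 TPM, while TYR, the pigment enzyme gene, had no counts. LINC00673, a noncoding gene of the SOX9 region, was at 17.2 ± 1.42 TPM.

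Of 13 basal and myoepithelial genes, 9 (69.2%) reached 1 CPM in every library, with a median of 5.09 TPM. The share was 55.6% over all genes and 67.7% over genes with a count. The integrin gene ITGA6 and the laminin gene LAMB3 led at 444 ± 18.7 and 413 ± 21.7 TPM, and the basal keratin KRT14 was lowest at 0.160 ± 0.04996 TPM. Chosen after their values were seen, TP63, the basal master regulator, was at 1.04 ± 0.191 TPM, the keratin gene KRT5 had 392, 459 and 0 counts, and KRT17 had 124, 116 and 29. Replicate 3 thus stood apart in both keratins. KRT17 has near-identical pseudogenes, so its counts are uncertain.

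Of 13 cofactors of the members, 12 reached 1 CPM in every library, where 55.6% of all genes did, with a median of 16.2 TPM. The AP-2 coactivator gene CITED2 was at 64.1 ± 1.37 TPM, the Groucho corepressor gene TLE1, whose product binds forkhead factors, at 57.7 ± 1.38, and KCTD15, an AP-2 inhibitor, lowest at 0.637 ± 0.160 TPM. Of 12 other epithelial regulators, 6 reached that level, with a median of 0.669 TPM. KLF4, a zinc finger factor of epithelial differentiation, stood at 43.5 ± 1.85 and the Notch target HES1 at 28.0 ± 1.497 TPM, and TBX3, a mammary T-box gene, was lowest, with 5 counts in replicate 2 alone. These lists were chosen with earlier results of the data known, and no test was made on them.

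**Figure D4:**
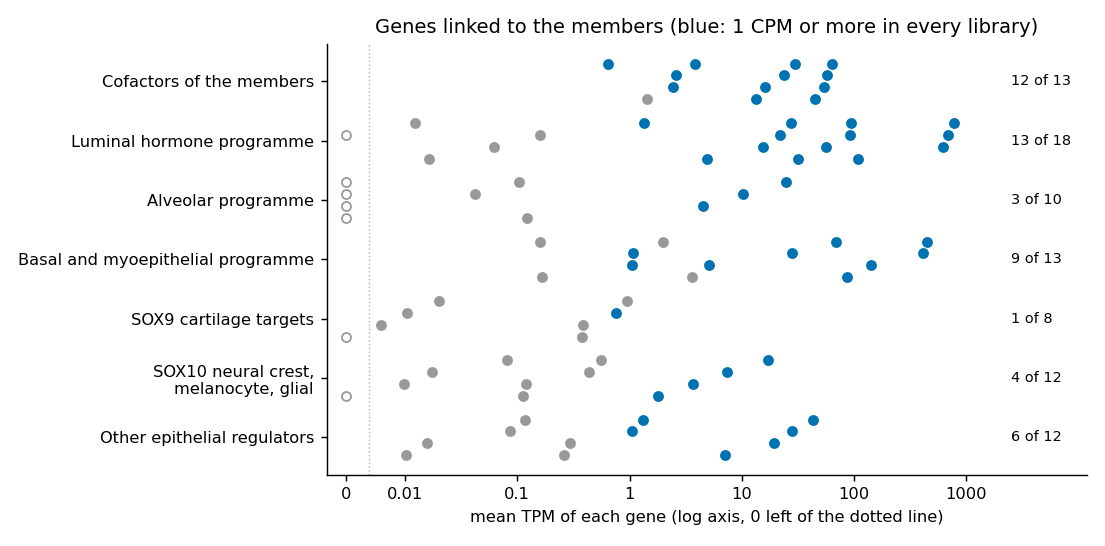
Mean TPM (log axis) of each gene in 7 lists linked to the members, blue where it reached 1 CPM in every library, with the number that did so at the right and open circles for 0 counts. Cofactor and luminal genes lie mostly above 1 TPM, and all cartilage targets lie below it.

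In the order of mean TPM, EHF was followed by SOX9, SPDEF, ELF3, TFAP2C, GATA3, TFAP2A, FOXA1, SOX10 and ELF5. GATA3 and TFAP2A overlapped over the libraries, with TFAP2A the higher in replicate 3, and so did SOX10 and ELF5, which are both at 0 in replicate 1. The ranges of all other neighbours in this order were separate. The nearest of these were EHF and SOX9, whose ratio was 1.18 ± 0.101 in TPM and above 1 in 3 of 3 libraries. With the length of each counted record's own transcript the pair lay further apart, SOX9 standing at 0.402 ± 0.0336 of the level of EHF. Without the length correction SOX9 was the higher of the pair on average (131.6 ± 0.193 against 123.8 ± 10.7 CPM), although EHF exceeded it in replicate 3. On that scale TFAP2A and GATA3 were level, at 5.29 ± 0.722 and 5.24 ± 0.559 CPM. ELF3 exceeded TFAP2C 1.47 ± 0.0616-fold, and TFAP2C exceeded GATA3 2.40 ± 0.414-fold. From SOX9 to FOXA1 the levels fell 104 ± 1.40-fold per library. This SD is smaller than counting allows, since counting of pairs alone gives FOXA1 a coefficient of variation of 18.0%.

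The 8 members with enough counts were tested for variation between the libraries beyond counting noise, with each pair counted once (edgeR deviance against a chi-square, Benjamini-Hochberg over 14469 genes). EHF and SPDEF passed, 2 of 8, against 28.4% of all genes tested. EHF differed 1.18-fold between its highest and lowest library (adjusted p = 3.98e-12), and SPDEF 1.20-fold (adjusted p = 2.38e-05). The coefficients of variation of these genes in CPM were 8.66% and 9.498%, where counting alone gives 1.54% and 2.70%. TFAP2A with 1.27-fold and GATA3 with 1.23-fold differed more, but on fewer counts, and did not pass (adjusted p = 0.139 and 0.293). ELF3 (0.582), TFAP2C (0.239), SOX9 (0.995) and FOXA1 (0.997) did not pass either. Of the 17 ETS genes tested, 6 passed, and the other 4 were ETV4, ETS1, ETV1 and ETV6. Each of these had a higher count in every library than SPDEF. So had ETV5, ELK3, ELK4, ERF and ELK1, which did not pass. Without replicate 2 the SPDEF call was lost (adjusted p = 0.363), and with true variation of 0.05 (coefficient of variation) taken as given, neither gene passed (adjusted p = 0.9997 for both), against 0.0484% of all genes. With every count taken as an independent read, 5 of 8 members passed against 52.9% of all genes. With the sum over records 3 of 8 passed against 41.6%, TFAP2A being the third. That sum counts reads shared by records of a gene more than once. Genes with several records thus pass more easily, and the setting cannot decide on TFAP2A. Without replicate 3, both EHF (adjusted p = 0.0404) and SPDEF (0.00711) passed, against 8.72% of all genes.

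**Figure D5:**
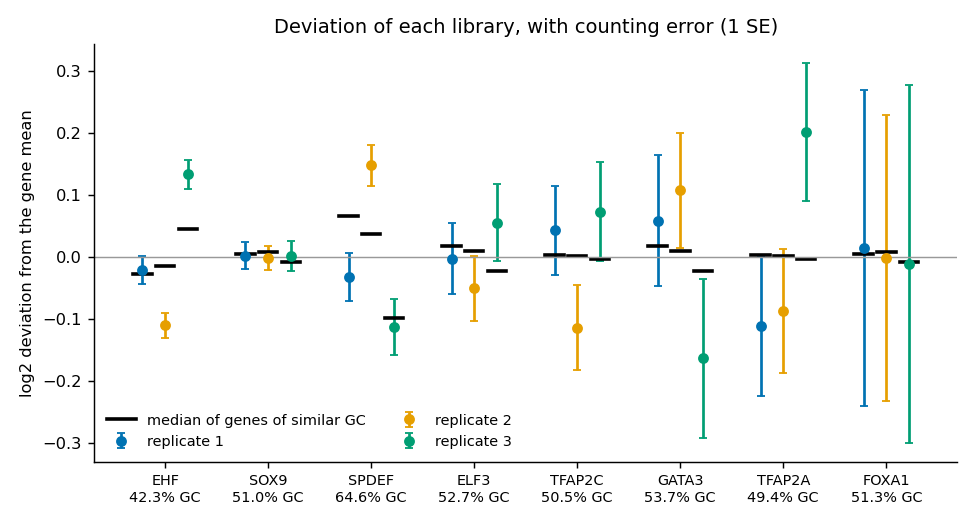
Deviation of each library from the gene's mean (log2 of CPM + 0.5) for the 8 members tested, with 1 SE of counting, and the median deviation of genes of similar GC content as black bars. EHF and SPDEF deviate in opposite directions in replicates 2 and 3, and SOX9 stays at 0.

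EHF and SPDEF also lie at different base compositions. The EHF transcript has 42.3% GC and that of SPDEF 64.6%. In replicate 3 EHF deviated by 0.13 and SPDEF by -0.11 from their means (log2), while genes of similar GC content had median deviations of 0.05 and -0.10. In replicate 2 the members deviated by -0.11 and 0.15, and genes of similar GC content by -0.01 and 0.04. With offsets for GC content, added after seeing the data, both genes still passed (adjusted p = 1.6e-06 and 0.00279), against 14.4% of all genes tested.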

How the data were processed

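Gene expression was measured by RNA sequencing (paired reads of 100 bases) in 3 control siRNA libraries of MDA-MB-231 cells, which the labels call biological replicates. The authors deposited raw counts per RefSeq transcript record. FastQC, TopHat2, Cufflinks and the build hg19 are named in the submitters' processing notes; how reads were counted, by strand or when matching several places, is not given in the sources used here. All 3 libraries come from 1 line, so p-values measure only the spread between these samples.

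From the deposited counts, copies of a record were summed and each gene took its record with the largest total. Of 42269 records, 6937 had no gene name, 6318 of these were matched by identifier, and 619 (0.944% to 0.959% of the record totals) were left out. CPM used TMM library sizes (edgeR 4.0.16, R 4.3.3). TPM used the longest GENCODE 29 transcript matched to a record of the gene, or, for 554 genes with a count and no such match, none of them members, the gene's transcript of median length; 98.9% of genes with a count had a length. A gene was called detected at 1 CPM or more in each library. Variation was tested on counts divided by 2, so that each pair counted once, in genes kept by filterByExpr: an edgeR model with a single mean per gene and dispersion 0 was fitted, and its deviance was set against a chi-square with 2 degrees of freedom, Benjamini-Hochberg adjusted over all tested genes and called under 0.05. The script was tested on simulated data. Intervals are exact Poisson at 95% on pairs. Promoters came from RefSeq. Python 3.11.15 was used for tables and plots.

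All members and all genes of the family lists were named, the ETS list being a chosen part of that family. In each other list, those of cell type markers apart, the 2 highest and the lowest gene by mean TPM were named, with ESR1, PGR, VIM and CDH1; other genes are marked as chosen after their values were seen, and in the SOX10 and alveolar lists ERBB3, PMEL, ALDH1A3 and PRLR were also so chosen. The members and lists were chosen with earlier results of these data known. Alternatives covered library scaling, the gene count, the length, the minimum level, the filter, the mates of a pair, the spread allowed, GC content and leaving out each replicate. DESeq2 1.42.0 supplied size factors for 1 alternative. SOX9-AS1, ELF3-AS1 and LINC01152 had no record that matched.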

Additional observations from a re-analysis of the deposited data

How the results depend on the processing

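No paired analysis was possible because all 3 libraries belong to 1 group. The number of members at 1 CPM or more was 7 under every alternative except a minimum of 0.5 CPM, where FOXA1 made it 8. With every count taken as an independent read, 5 members varied between libraries (EHF, GATA3, SPDEF, TFAP2A and TFAP2C) and 7658 genes in all (52.9%). With a coefficient of variation of 0.05 allowed, edgeR called 0 members, and 0 at an unadjusted p under 0.05 (the lowest was 0.0622), and 7 genes in all. With 0.1 allowed the counts were 0 and 4. GC offsets, added after seeing the data, gave 2085 genes in all (14.4%) and kept both members. Leaving out a replicate gave 1 to 2 members and 1286 to 3089 genes. The lowest counts were those without replicate 2 for members, where only EHF remained, and without replicate 3 for all genes (8.72%). The sum over records counts reads shared by records of a gene more than once. It added TFAP2A (edgeR adjusted p = 0.000167), against 41.6% of all genes. It also placed SPDEF above SOX9 and TFAP2A above GATA3, and the longest transcript of the gene placed TFAP2C above ELF3. CPM placed SOX9 above EHF and TFAP2A above GATA3. None of the 8 alternatives run on the members' levels moved EHF, SOX9 or SPDEF below the median detected gene, or the other 5 members above it. The 8 member levels were log2 values relative to the median detected gene. The sum over records moved 8 of them by more than 1 SD, the longest transcript 7, and CPM 5. The own transcript and the smallest record moved 4 each, and leaving out a replicate moved none. SOX9, TFAP2C and FOXA1 have 1 record each. Their moves with the sum over records, such as SOX9 from 1.83 to 1.28, therefore came from a shift of the median itself. With the own transcript SOX9 kept its 3935 bases and still moved to 1.76. FOXA1 and SOX10 rest on few counts, and ELF5 has none. The cause of the other changes in levels and calls was not tested.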
